A study of Mus musculus with 20 samples.

Results

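Inflammatory cytokine genes were followed through the growth of colorectal liver metastases and in the myeloid cells extracted from them. The group holds 10 genes of the 54532 in each count table, chosen by name: Il1a, Il1b, Il1rn, Il18, Nlrp3, Tnf, Il6, Osm, Il10 and Ptgs2. All 10 were found in both tables. The tissue libraries came from wild-type C57BL/6 mice that received either saline or 1000000 MC38 cells, a C57BL/6 colon adenocarcinoma line, which reached the liver from the spleen by way of the portal vein. The labels give the tissue mice as male, while the methods of the study describe female mice of 6 to 8 weeks. Control liver (con, 2 libraries) was taken at day 0 from mice given saline. All other groups carried MC38 cells: tumor-free liver far from the tumor at day 12 (L-con, 1 library), low-content tumor at day 9 (Lt, 2 libraries), medium-content tumor at day 9 (Mt3, 2 libraries) and at day 11 (Mt2 and Mt1, 2 libraries each), and high-content tumor at day 12 (Ht, 3 libraries). Tumor content and day were thus only partly separate. Ht replicates 1 and 3 came, by the methods of the study, from identical material, and were summed into 1 sample, which leaves n = 2 for Ht. F4/80+ cells and CD11b+ cells (3 libraries each) were selected with antibody-coated magnetic beads from medium-content tumor at day 11, the Mt2 stage. No source states whether the 3 libraries of a sorted population came from separate mice, so that their p-values measure the spread between these libraries, which may be technical.

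Cytokines are secreted signalling proteins, and the genes of this group include drivers and inhibitors of an inflammatory response. Interleukin 1α and interleukin 1β bind the same receptor, and the receptor antagonist encoded by Il1rn occupies that receptor without signalling. Interleukin 1β and interleukin 18 are made as inactive precursors that caspase-1 cleaves after the NLRP3 inflammasome has assembled. Tumor necrosis factor (Tnf) signals through NF-κB, interleukin 6 and oncostatin M (Osm) signal through the gp130 receptor chain, interleukin 10 restrains macrophages, and Ptgs2 encodes cyclooxygenase-2, the inducible enzyme of prostaglandin synthesis. In liver, Kupffer cells and recruited monocytes, macrophages and neutrophils are known sources of most of them. The transcript of a precursor says nothing of its cleavage.

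Hepatocyte markers were highest in control liver and lowest, among tissue, in high-content tumor, while low- and medium-content tumors overlapped. Their sum lay at 168000 to 199000 counts per 1000000 counts (CPM, normalised across all samples by the trimmed mean of M values, TMM) in con and at 3260 to 4730 in Ht, with 89700 to 165000 in Lt, 98800 to 133000 in Mt3, 25200 to 99500 in Mt2 and 23900 to 92100 in Mt1, and replicate 2 was the lower sample in each of these 4 groups. In con all 6 mast cell and basophil markers were at 0. Summed macrophage markers (9 genes) lay at 429 to 647 CPM in con, 2260 to 2290 in Ht, 14500 to 16000 in F4/80+ cells and 12900 to 20100 in CD11b+ cells. Neutrophil markers (9 genes) were at 3.62 to 4.85 CPM in con, with Ly6g and Ngp at 0, at 182 to 201 in Ht, at 175 to 679 in F4/80+ cells and at 1260 to 4830 in CD11b+ cells. Each sorted population held transcripts of both sorting antigens: Adgre1, the gene of F4/80, was at 691 to 784 CPM in F4/80+ cells and 507 to 547 in CD11b+ cells, and Itgam, the gene of CD11b, was at 244 to 295 and 350 to 439 CPM. Library totals were 16032085 to 18246623 counts in tissue and 17785496 to 20548370 in sorted cells, and 3 counts correspond to between 0.0587 and 0.275 CPM on the normalised scale. In tissue, fewer cells of a type and less RNA per cell cannot be told apart.

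**Figure D1:**
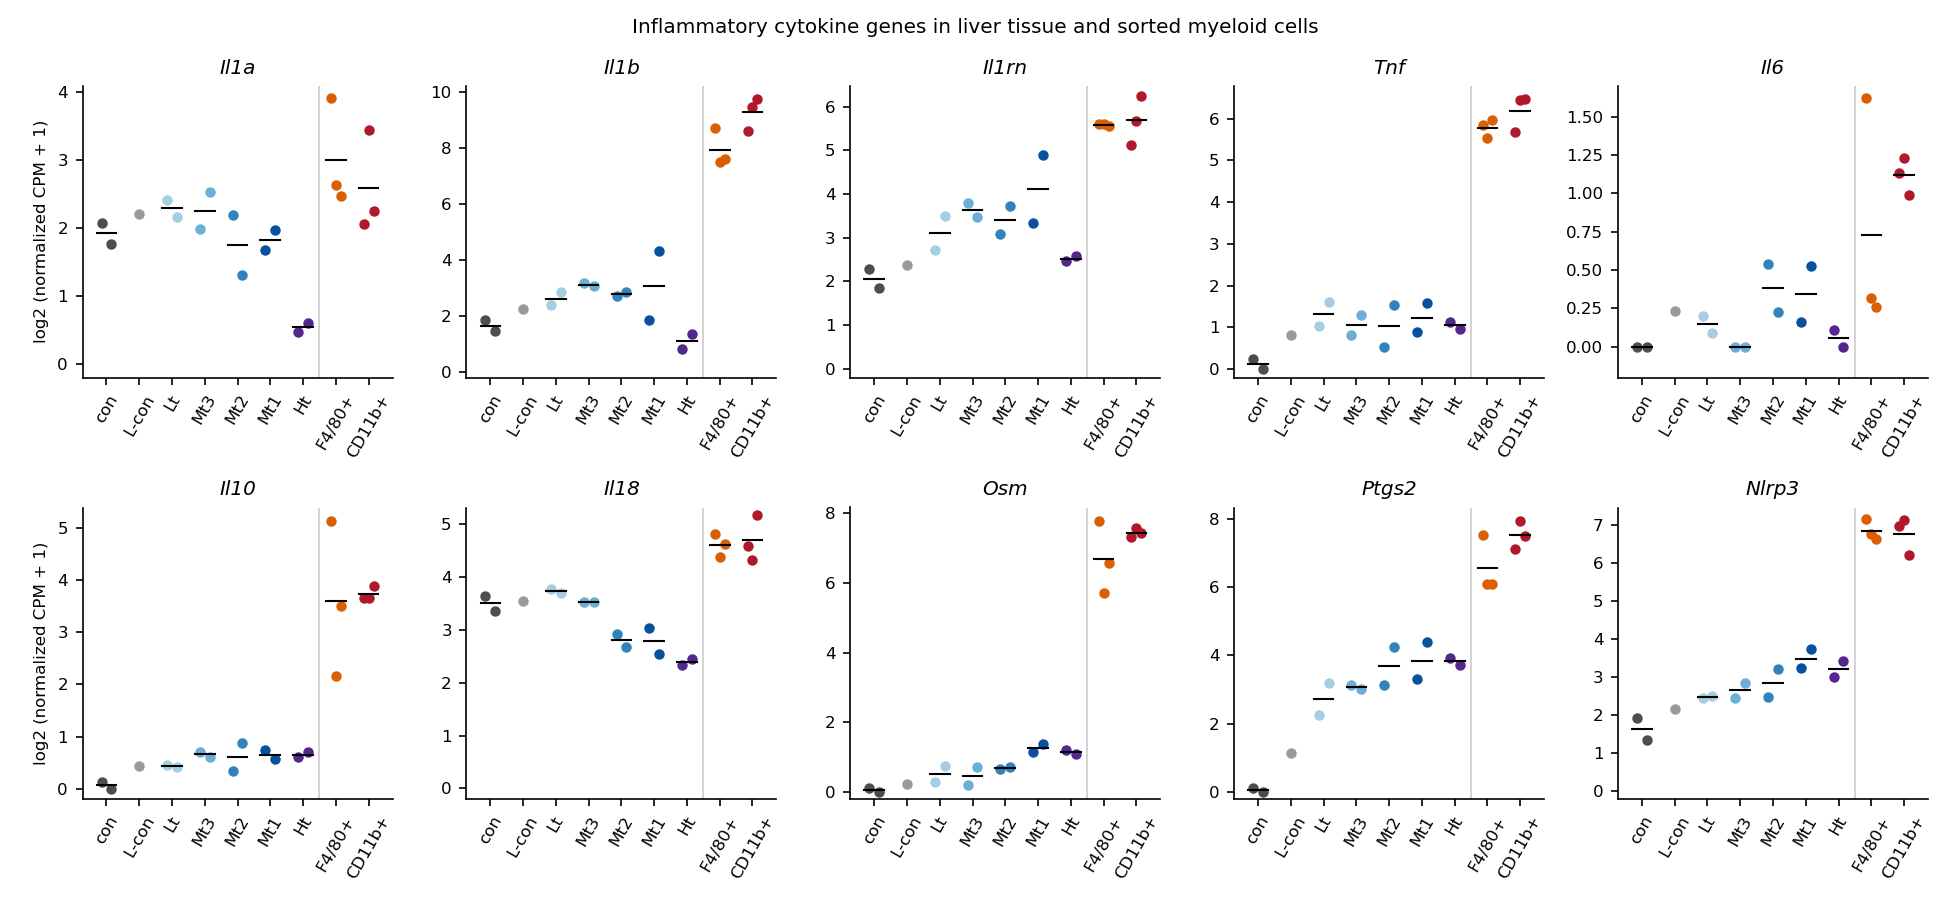
Level of each of the 10 genes in every sample, as log2 of normalised CPM plus 1, with 1 point per sample and a bar at the group mean where a group has more than 1 sample. The grey line separates tissue (left) from sorted cells (right). Il1a is lowest in Ht (0.391 and 0.512 CPM), Ptgs2 is near 0 in con, and Il1b reaches 382 to 864 CPM in CD11b+ cells.

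Interleukin 1β transcripts fell from medium-content to high-content tumor. Il1b (chr2:129364570-129371139, minus strand, GRCm38) measured 2.65 and 1.72 CPM in con, 4.18 and 6.14 in Lt, and 0.783 and 1.54 in Ht. Over the 6 Mt samples it ran from 2.61 to 18.7 CPM with a median of 6.82. On this scale both Ht samples lay below every other tissue sample, con included, and 1 Mt1 sample stood far above the rest. The fall from Mt to Ht passed the test (log2 fold change -2.79, SE 0.70, adjusted p = 0.0242), where a call required an adjusted p of at most 0.05 and at least 2-fold. From con, the difference was 1.24 (SE 0.77, adjusted p = 0.317) in Lt and -0.96 (SE 0.79, adjusted p = 0.31) in Ht. The place of Ht against con rests on the scaling: with scaling to total counts that difference was 0.23 (adjusted p = 0.817), and raw counts were 29 and 20 in con and 21, 42 and 19 in the Ht libraries. Without that Mt1 sample, replicate 2, the fall from Mt to Ht was -2.11 (adjusted p = 0.00674). The call was lost without Mt3 replicate 1 (adjusted p = 0.0506), without Ht replicate 2 (adjusted p = 0.115) and in a fit of the groups compared only (adjusted p = 0.0507).

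Il1a (chr2:129299610-129309972, minus strand), whose product is active without cleavage and is best known as an alarm signal of injured cells, was the one interleukin 1 gene called lower in Ht than in control liver. It measured 3.20 and 2.41 CPM in con, 4.33 and 3.47 in Lt, and 0.391 and 0.512 in Ht. The 6 Mt samples spanned 1.48 to 4.78 CPM, with a median of 2.93. Con, Lt and Mt overlapped, while no Ht sample came near them. Il1a fell from Mt to Ht (log2 fold change -2.69, SE 0.45, adjusted p = 0.00888) and from con to Ht (-2.65, SE 0.50, adjusted p = 0.00157, and -1.47, adjusted p = 0.0221, with scaling to total counts). In raw counts, con held 35 and 28 reads and the Ht libraries 8, 14 and 12. The call from Mt to Ht was lost without Ht replicate 2 (-2.87, adjusted p = 0.0845), which leaves a single Ht sample assumed to vary like the other groups.

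The antagonist Il1rn (chr2:24336853-24351494, plus strand) rose over the metastasis groups as a whole and fell from Mt to Ht. It measured 3.84 and 2.59 CPM in con, 5.59 and 10.3 in Lt, and 4.52 and 4.98 in Ht. The 6 Mt samples spanned 7.55 to 28.6 CPM, with a median of 11.2, and Mt1 replicate 2 was again the highest. Both Ht samples lay between con and Mt, without overlap, and the difference from con to Ht was 0.54 (SE 0.54, adjusted p = 0.398). Il1rn rose from con to the mean of the 5 metastasis groups (log2 fold change 1.57, SE 0.47, adjusted p = 0.0191), a call lost without con replicate 1 (1.88, adjusted p = 0.0624) or con replicate 2 (1.30, adjusted p = 0.151). Il1rn fell from Mt to Ht (-1.45, SE 0.45, adjusted p = 0.0467), a call that several alternatives ended. It was lost without Mt3 replicate 1 (-1.39), Mt3 replicate 2 (-1.50) or Ht replicate 2 (-1.51), each of which leaves 1 sample in a group. It was also lost without Ht replicate 3 (-1.44, adjusted p = 0.0506) and in a fit of the groups compared only (-1.46, adjusted p = 0.0646). Under total-count scaling the difference was -0.95 (adjusted p = 0.17).

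The balance of antagonist and agonist transcripts shifted between tissue stages and again in sorted cells. This ratio was chosen after the values were seen and is given as a description. Per length of gene model, Il1rn stood to Il1b at 0.499 and 0.517 in con, 0.461 and 0.577 in Lt, and 1.99 and 1.12 in Ht. In Mt the ratio was 0.545 and 0.477 (Mt3), 0.470 and 0.675 (Mt2), and 1.21 and 0.528 (Mt1), so that 1 Mt1 sample lay within the Ht range. In sorted cells it was far lower, at 0.0392, 0.0911 and 0.0827 in F4/80+ cells and at 0.0305, 0.0247 and 0.0300 in CD11b+ cells, where every library held more than 10 times as much Il1b as Il1rn per length. The longer Il1rn gene model sets the level of this ratio: by reads it was 1.45 and 1.5 in con, above 1 in every tissue sample, 5.78 and 3.24 in Ht, 0.114 to 0.264 in F4/80+ cells and 0.0717 to 0.0885 in CD11b+ cells. The Kupffer cell markers fell with Il1a, Il1b and Il1rn from Mt to Ht: all 5 were called lower, and their sum was 273 to 985 CPM in Mt2 and Mt1, 573 to 753 in Mt3 and 74.5 to 130 in Ht. All 9 hepatocyte markers and 4 of 8 endothelial markers were also called lower there. The part of these cell types in the fall of the interleukin 1 genes was not tested.

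**Figure D2:**
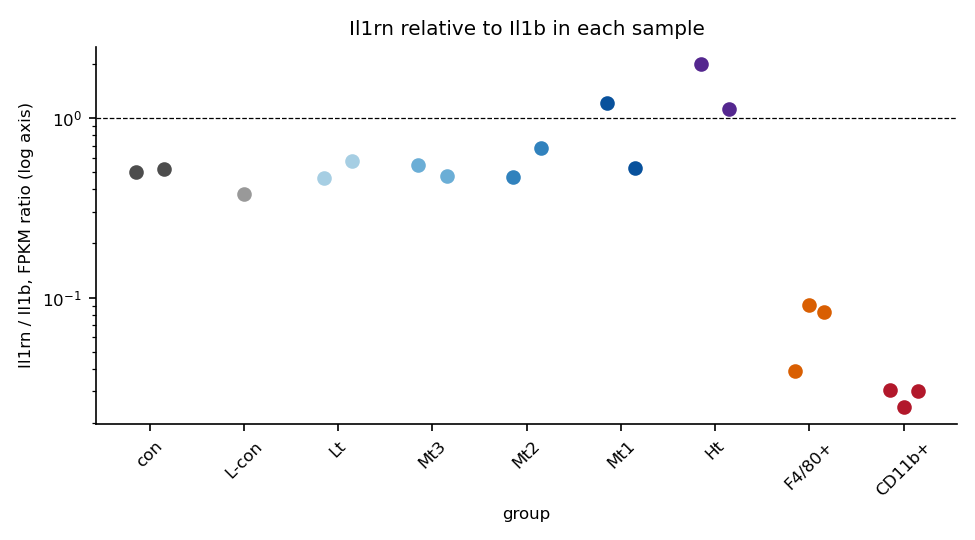
Ratio of Il1rn to Il1b in each sample, both per length of gene model, on a log axis, with 1 point per sample. The dashed line marks equal levels per length, and by reads every tissue sample would lie above it. The 2 Ht samples (1.99 and 1.12) and 1 Mt1 sample (1.21) lie above it, and all 6 sorted libraries lie below 0.1.

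The promoters of 8 of the 10 genes (all but Il10 and Osm) were matched by symbol in RefSeq (GRCm38.p6), from 250 bases before the start site to 50 bases from it. For each gene the start site nearest the start of the deposited gene model was taken. Whether that start site is the one used in these samples was not examined. Shown are the 3 interleukin 1 genes that fell together from Mt to Ht and the matched genes, Ptgs2, Nlrp3 and Tnf, that rose from con to the metastasis groups and were not called lower from Mt to Ht. Each is written 5′ to 3′ on the strand of the gene, and capitals mark matches to the motifs searched on both strands.
Il1a promoter (chr2:129309923-129310222, minus strand): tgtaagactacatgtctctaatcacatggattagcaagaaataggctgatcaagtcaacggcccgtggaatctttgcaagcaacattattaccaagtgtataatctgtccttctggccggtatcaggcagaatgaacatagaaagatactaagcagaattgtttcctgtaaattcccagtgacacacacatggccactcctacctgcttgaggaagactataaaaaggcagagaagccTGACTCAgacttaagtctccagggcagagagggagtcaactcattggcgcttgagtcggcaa
Il1b promoter (chr2:129371090-129371389, minus strand): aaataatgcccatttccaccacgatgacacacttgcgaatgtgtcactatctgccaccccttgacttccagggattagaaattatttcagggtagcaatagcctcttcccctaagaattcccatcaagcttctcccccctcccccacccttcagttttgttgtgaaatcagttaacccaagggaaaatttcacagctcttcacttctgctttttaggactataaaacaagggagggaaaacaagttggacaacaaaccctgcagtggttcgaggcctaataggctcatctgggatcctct
Il1rn promoter (chr2:24336610-24336909, plus strand): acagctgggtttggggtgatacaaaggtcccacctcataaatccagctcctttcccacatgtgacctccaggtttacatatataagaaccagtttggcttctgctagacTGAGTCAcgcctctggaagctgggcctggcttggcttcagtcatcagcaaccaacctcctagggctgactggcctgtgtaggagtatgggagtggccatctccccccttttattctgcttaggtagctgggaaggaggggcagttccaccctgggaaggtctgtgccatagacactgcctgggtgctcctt
Ptgs2 promoter (chr1:150099781-150100080, plus strand): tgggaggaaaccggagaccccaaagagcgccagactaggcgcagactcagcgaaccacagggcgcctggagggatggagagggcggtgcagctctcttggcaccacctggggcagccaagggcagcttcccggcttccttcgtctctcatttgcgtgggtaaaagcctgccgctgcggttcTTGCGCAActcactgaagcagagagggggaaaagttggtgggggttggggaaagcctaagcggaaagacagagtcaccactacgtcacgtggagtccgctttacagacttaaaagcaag
Nlrp3 promoter (chr11:59541319-59541618, plus strand): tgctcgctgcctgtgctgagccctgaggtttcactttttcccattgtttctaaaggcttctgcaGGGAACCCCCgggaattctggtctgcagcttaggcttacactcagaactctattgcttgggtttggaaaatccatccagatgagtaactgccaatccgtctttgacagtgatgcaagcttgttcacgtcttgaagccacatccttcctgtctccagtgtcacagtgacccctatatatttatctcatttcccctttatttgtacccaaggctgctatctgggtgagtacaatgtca
Tnf promoter (chr17:35201958-35202257, minus strand): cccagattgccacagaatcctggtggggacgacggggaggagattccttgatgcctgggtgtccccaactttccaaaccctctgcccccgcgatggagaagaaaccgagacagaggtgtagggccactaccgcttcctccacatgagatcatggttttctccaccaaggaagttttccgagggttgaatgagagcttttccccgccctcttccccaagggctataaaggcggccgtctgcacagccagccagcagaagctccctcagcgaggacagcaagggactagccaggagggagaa
The motifs were AP-1 (TGANTCA), C/EBP (TTGCNNAA), CRE (TGACGTCA) and the NF-κB consensus, and no match overlapped another. AP-1 letters stood in the windows of Il1a (12 bases before the start site), Il1rn and Il6, 3 of 8 against 7.79% of 32544 promoters of the same length. C/EBP letters stood in Ptgs2 and Il6, 2 of 8 against 10.8%, and NF-κB letters in Nlrp3 and Il6, 2 of 8 against 8.49%. CRE letters stood in none of the 8, against 1.80% of promoters. A match is a description of letters, and the windows of Il1b, Tnf and Il18 held none of these letters.

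Nlrp3 (chr11:59541568-59566956, plus strand), the sensor of the inflammasome, rose from control liver to metastasis and was not called lower in Ht than in Mt. It measured 2.84 and 1.55 CPM in con, 4.48 and 4.67 in Lt, and 7.06 and 9.81 in Ht, with 4.49 to 12.4 and a median of 7.33 over the 6 Mt samples. Every metastasis sample lay above both con samples. It rose from con to Ht (log2 fold change 1.92, SE 0.42, adjusted p = 0.00313) and from con to the metastasis groups (1.61, SE 0.36, adjusted p = 0.00514). The latter call was lost without con replicate 2 (1.23, adjusted p = 0.0647). From Mt to Ht the difference was 0.23 (SE 0.30, adjusted p = 0.588).

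Il18 (chr9:50554827-50581840, plus strand), the other substrate of caspase-1, went the opposite way on the normalised scale. It measured 11.5 and 9.23 CPM in con, 12.7 and 12.0 in Lt, and 10.5 in both Mt3 samples. At day 11 it was at 6.57 and 5.41 CPM (Mt2) and 7.22 and 4.81 (Mt1), and Ht held 4.05 and 4.47. Day 9 metastases lay within or just above the range of con, and all metastasis samples of days 11 and 12 lay below it. The fall from con to Ht was called (log2 fold change -1.30, SE 0.25, adjusted p = 0.00156), whereas -0.77 from Mt to Ht (SE 0.21, adjusted p = 0.0311) was under 2-fold. This direction rests on the scaling: raw counts were 126 and 107 in con and 117, 122 and 90 in the Ht libraries, and with scaling to total counts the change from con to Ht was -0.11 (adjusted p = 0.718), while the median of all genes moved from 0.09 to 1.28.

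Tnf (chr17:35199381-35202007, minus strand) was near 0 in control liver and present at a low level in every metastasis group. Con held 2 reads in 1 library and 0 in the other. Lt measured 1.04 and 2.07 CPM, the 6 Mt samples 0.456 to 1.99 with a median of 1.14, and Ht 1.19 and 0.952. All metastasis samples lay above con, and the metastasis groups overlapped each other. In Lt, Mt3, Mt2 and Mt1 replicate 2, the sample with fewer hepatocyte markers, held more Tnf, Nlrp3 and Osm than replicate 1, and the part of tissue content in these levels was not tested. With so few control reads a fold rests on counting: Ht held 12.5 times the con level (95% exact interval 3.36 to 105, counting error only) and Lt 17.8 times (4.66 to 152). Tnf was called higher in Lt (adjusted p = 0.0472), in Ht (adjusted p = 0.0245) and over the metastasis groups (adjusted p = 0.0148). The call in Lt was lost without any 1 of its 4 libraries, with adjusted p of 0.078 without con replicate 1, 0.226 without con replicate 2, 0.0535 without Lt replicate 1 and 0.226 without Lt replicate 2, and under total-count scaling (0.0564). Without con replicate 2 the calls in Ht (adjusted p = 0.135) and over metastases (0.112) were lost too.

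Of the gp130 cytokines, Osm (chr11:4236420-4241026, plus strand), a product of activated myeloid cells, held 2 to 36 reads in the metastasis libraries, and Il6 0 to 10. Osm held 1 and 0 reads in con, and day 9 metastases 0.224 and 0.667 CPM (Lt) and 0.140 and 0.655 (Mt3). Mt2 measured 0.586 and 0.634 CPM, Mt1 1.21 and 1.59, and Ht 1.29 and 1.13. The Mt1 and Ht samples were the 4 highest of all tissue, and Mt3 replicate 1, with 2 reads, lay below the level of 3 counts. Ht held 27.9 times the con level by counts (95% exact interval 4.88 to 1110), and Osm was called higher in Ht (adjusted p = 0.00488) and over the metastasis groups (adjusted p = 0.0122, and 0.097 without con replicate 2). Il6 (chr5:30013114-30019981, plus strand), the classical inducer of the acute phase response, had 0 reads in both con and both Mt3 libraries and 2 and 1 in Lt. At day 11 Mt2 held 7 and 4 reads and Mt1 2 and 10, and the Ht libraries held 3, 0 and 1. None of its changes in tissue passed the test. Pooled reads can be compared by counting error alone, which leaves out the spread between animals. The 11 reads of Mt2 and the 12 of Mt1 against 0 in con had lower 95% exact bounds of 1.45 and 1.6 times. Over the 6 Mt samples, with 23 reads, the bound was 1.2. Over all metastasis samples, with 30 reads, it was 0.802, so a rise over metastases was not shown. Lt, Mt3 and Ht could not be told from con at this depth.

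Il10 (chr1:131019845-131024974, plus strand), the anti-inflammatory member, was low across metastases. It held 1 and 0 reads in con, and measured 0.373 and 0.334 CPM in Lt, 0.260 to 0.846 with a median of 0.577 over Mt, and 0.528 and 0.622 in Ht. By counts, Ht held 12.6 times the con level (95% exact interval 2.15 to 510). Il10 was called higher in Ht (adjusted p = 0.0137, and 0.0845 without con replicate 2) and over the metastasis groups (adjusted p = 0.0141, and 0.108 without con replicate 2).

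Ptgs2 (chr1:150100031-150108227, plus strand) had the largest contrast with control liver of the 10 genes. Con held 1 and 0 reads in libraries of at least 16032085 counts. Lt measured 3.80 and 8.07 CPM, Mt3 7.85 and 7.07, Mt2 7.81 and 17.8, Mt1 8.85 and 20, and Ht 14.3 and 12.3. Every metastasis sample exceeded both con samples by a wide margin. By counts, Ptgs2 stood at 136 times the con level in Lt (95% exact interval 24.2 to 5420) and 307 times in Ht (54.9 to 12100). It was called higher in Lt (adjusted p = 0.00313), in Ht (adjusted p = 0.000219) and over the metastasis groups (adjusted p = 0.000373), and these calls remained in all alternatives that tested the gene, each single library left out included. From Lt to Mt (0.88, SE 0.45, adjusted p = 0.302) and from Mt to Ht (0.25, SE 0.41, adjusted p = 0.662) no further change was called.

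In the 1 library of tumor-free liver from a tumor-bearing mouse (L-con), Ptgs2 measured 1.21 CPM, Tnf 0.777, Il1b 3.80 and Nlrp3 3.46, each above both con samples. Il18 at 10.7 CPM lay within the range of con, and Il1a at 3.63, Il1rn at 4.15, Il10 at 0.346, Osm at 0.173 and Il6 at 0.173 lay above it. Macrophage markers summed to 1000 CPM in this library (429 to 647 in con), Kupffer cell markers to 953 (333 to 445) and neutrophil markers to 15.4 (3.62 to 4.85), and their part in these levels was not tested. The L-con library was not tested against con in the fits, and counting intervals are given in the closing sections.

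**Figure D3:**
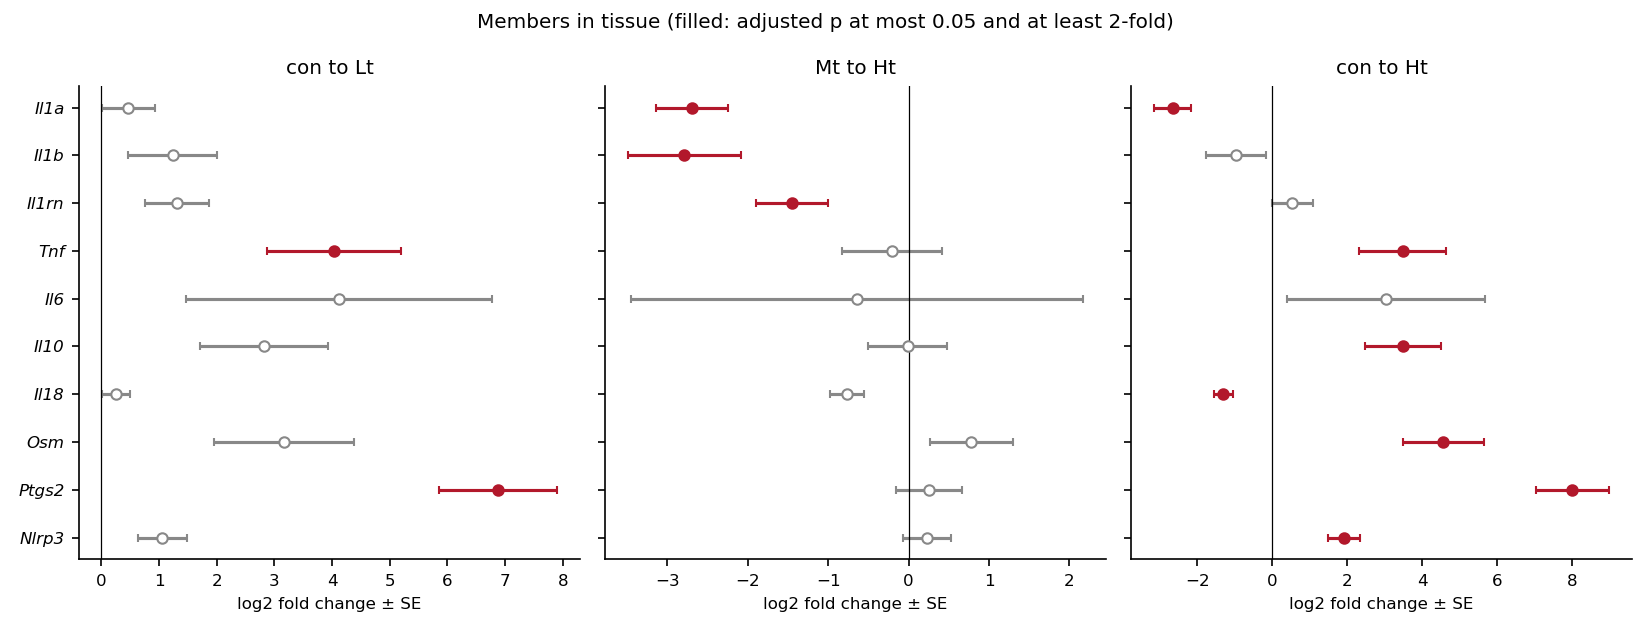
Log2 fold change with its standard error for the 10 genes from con to Lt, Mt to Ht and con to Ht, 1 row per gene, from edgeR's quasi-likelihood fit. Filled red points passed the test and at least 2-fold, and open grey points did not. The horizontal scale differs between panels. The 3 interleukin 1 genes fell from Mt to Ht, and genes with 0 to 2 reads in con (Tnf, Il6, Il10, Osm, Ptgs2) have wide errors.

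Across the tissue series, calls among the 10 genes went in both directions. From con to Lt, 2 of 10 genes were called higher (Tnf and Ptgs2) and 0 lower, with 12.7% of 17187 genes called, 12.4% higher and 0.256% lower. From Lt to Mt, 0 were called by edgeR (1, Il18, at an unadjusted p under 0.05) and 0 by DESeq2, with 0% of all genes called. From Mt to Ht, 3 were called lower (Il1a, Il1b and Il1rn) and 0 higher, with 14.9% of genes called, 13.4% lower and 1.5% higher. From con to Ht, 5 were called higher (Tnf, Il10, Osm, Ptgs2 and Nlrp3) and 2 lower (Il1a and Il18), with 49.9% of genes called, 25.8% higher and 24.1% lower. Over the 10 genes the log2 fold change had a median of 2.48 there, against 0.09 over all genes. From con to the mean of the metastasis groups, 6 were called higher and 0 lower, with 35.4% of genes called, 20.9% higher and 14.5% lower. Between Mt of day 9 and of day 11, 0 were called by edgeR (2, Il6 and Il18, at an unadjusted p under 0.05) and 0 by DESeq2, with 0% of genes called. The comparisons from con share both con libraries. With scaling to total counts the shares of all genes called higher and lower became 51.3% and 13.1% from con to Ht, 34.5% and 7.08% from con to metastases, and 15.1% and 10.3% from Mt to Ht, and the cytokine genes 6 higher and 1 lower, 7 higher and 0 lower, and 0 higher and 2 lower. Under that scaling Il1rn was called higher from con to Ht (1.73, adjusted p = 0.0398) and no longer called from Mt to Ht, and Il1b was called higher from con to metastases (1.87, adjusted p = 0.0499). Summed macrophage and neutrophil markers were higher in Ht than in con, as given above, and 4 of 8 neutrophil markers tested were called higher there. Fibroblast and stellate cell markers moved the same way, from 276 to 384 CPM in con to 6100 to 6920 in Ht, with 4 of 6 called higher and 1 lower, and immediate-early and heat-shock genes from 290 to 310 CPM to 483 to 559, with 6 of 12 called higher and 1 lower. Their part in the rise of the cytokine genes was not tested.

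Sorted myeloid cells carried most of these genes at levels above the tissue they came from, with Il1b and Osm among the furthest apart. Il1b measured 417, 180 and 192 CPM in F4/80+ cells and 382, 702 and 864 in CD11b+ cells, against 5.53 and 6.30 in Mt2 tissue. Osm measured 218, 51.8 and 93.7 CPM in F4/80+ cells and 159, 190 and 170 in CD11b+ cells, against 0.586 and 0.634 in Mt2 tissue. No sorted library overlapped the tissue for either gene. From Mt2 tissue to F4/80+ cells, 9 of 10 genes were called higher, all but Il6, with 42.3% of 18407 genes called and 17.2% called higher. From Mt2 tissue to CD11b+ cells, 8 of 10 were called higher, all but Il1a and Il6, with 43.9% of genes called and 17.6% called higher. No gene of the group was called lower in either, with 25.2% and 26.3% of all genes called lower. The 2 comparisons share the Mt2 libraries, and since tissue and cells form separate tables, sample kind and table cannot be told apart.

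Enrichment was very uneven within the group. Osm was highest, with a log2 fold change of 7.61 (SE 0.68, adjusted p = 5.91e-07) in F4/80+ cells and 8.13 (SE 0.69, adjusted p = 3.2e-07) in CD11b+ cells. Il1b followed with 5.47 (SE 0.76, adjusted p = 2.85e-05) and 6.77 (SE 0.80, adjusted p = 6.15e-06), then Tnf with 5.44 (SE 0.56) and 5.89 (SE 0.57). The order of this pair rests on Mt2 replicate 2: without it Tnf was at 6.92 and 7.36, above Il1b at 5.61 and 6.90. Il10 and Nlrp3 were at 4.76 and 4.15 in F4/80+ cells and at 4.39 and 4.11 in CD11b+ cells, and Ptgs2 at 3.04 and 3.86. With 1 library left out, Il10 ran from 3.55 (without F4/80+ replicate 1) to 5.95 (without Mt2 replicate 2) in F4/80+ cells and reached 5.57 in CD11b+ cells without Mt2 replicate 2. Ptgs2 ran from 2.38 to 3.81 and reached 4.61 without the same libraries, Osm fell to 6.88 in F4/80+ cells without F4/80+ replicate 1, and all of these were still called. The smallest differences were those of Il1rn (2.23 and 2.41), Il18 (1.97 and 2.10), Il1a (1.67, adjusted p = 0.0285, and 1.18, adjusted p = 0.103) and Il6 (1.46, SE 1.06, adjusted p = 0.26, and 1.96, SE 1.05, adjusted p = 0.131), which rests on few reads in tissue. The Il1a call in F4/80+ cells was lost without F4/80+ replicate 1 (0.97, adjusted p = 0.156), without Mt2 replicate 2 (1.19, adjusted p = 0.194) and in a fit of the groups compared only (adjusted p = 0.079).

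The macrophage markers give a scale for this enrichment, as a description only. The 9 compared lay between 2.42 and 3.57 on the log2 scale in F4/80+ cells and between 1.70 and 3.64 in CD11b+ cells. Neutrophil markers were also higher in the sorted cells: 6 of 9 were called higher and Mmp9 lower in F4/80+ cells (median 3.62), and 8 of 9 higher and 0 lower in CD11b+ cells (median 6.92), with Ngp at 6.17 and 8.91, Camp at 6.06 and 9.39, and a sum of 111 to 163 CPM in Mt2 tissue. Of 7 monocyte markers, 5 were called higher and 2 lower in each population. Immediate-early and heat-shock genes, which respond within minutes to handling and stress, moved in the same direction: 11 of 12 were called higher in each population and Hsph1 lower, their sum rose from 570 and 604 CPM in Mt2 tissue to 6430 to 13700 in F4/80+ cells and 9170 to 9540 in CD11b+ cells, and Fos differed by 7.77 and 7.60. The part of these cell types and of handling in the levels of the cytokine genes was not tested.

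**Figure D4:**
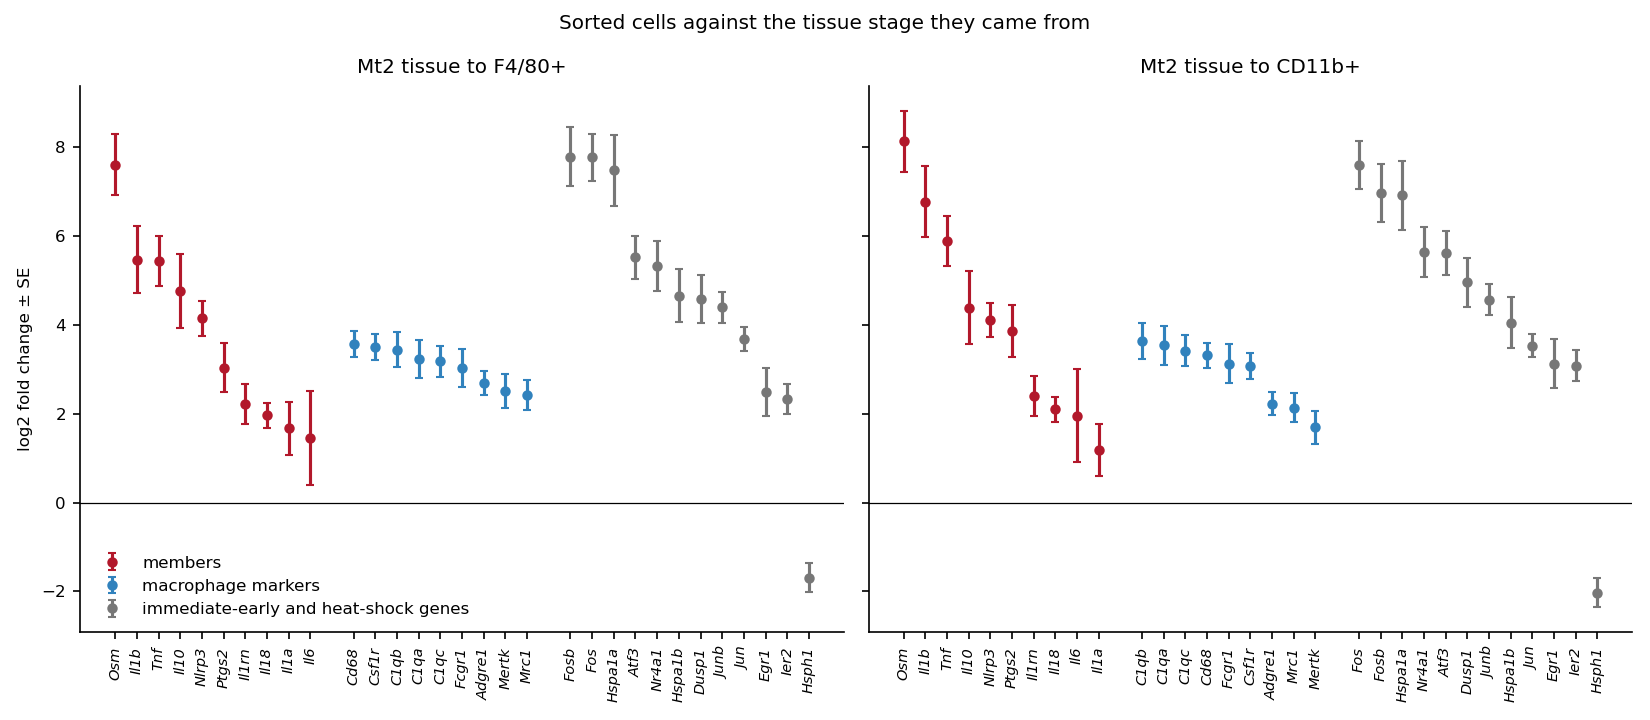
Log2 fold change with standard error from Mt2 tissue to F4/80+ cells (left) and to CD11b+ cells (right), with 1 point per gene, sorted by size within 3 sets: the cytokine genes (red), macrophage markers (blue) and immediate-early and heat-shock genes (grey). The macrophage markers plotted span 2.42 to 3.57 and 1.70 to 3.64, and Osm (7.61 and 8.13) is the highest of the cytokine genes in both panels.

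Between the sorted populations, no cytokine gene passed the test: edgeR called 0 of 10 (1, Il1b, at an unadjusted p under 0.05), with 0.0771% of 14263 genes called (0.00701% higher and 0.0701% lower), and DESeq2 called 1, Il1b, lower in F4/80+ cells. Il1b was lower in F4/80+ cells by -1.36 on the log2 scale (SE 0.42, adjusted p = 0.341), although F4/80+ replicate 1, at 417 CPM, exceeded CD11b+ replicate 1, at 382. Ptgs2 measured 184, 66.9 and 67.0 CPM in F4/80+ cells and 138, 243 and 179 in CD11b+ cells (-0.86, SE 0.43, adjusted p = 0.49). Nlrp3 was nearly level at 144, 108 and 98.4 against 125, 141 and 74.0 CPM (-0.01, SE 0.26, adjusted p = 0.991). Il1rn (-0.23, SE 0.27), Il18 (-0.18, SE 0.25) and Tnf (-0.50, SE 0.24) also differed by less than 2-fold.

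F4/80+ replicate 1 stood above the other F4/80+ libraries for most of the inducible genes. It held 34.3 CPM of Il10 against 3.49 and 10.3, 218 of Osm against 51.8 and 93.7, 14.1 of Il1a against 5.21 and 4.54, and 41 reads of Il6 against 5 and 4. Its immediate-early and heat-shock sum was 13700 CPM against 6430 and 7910, and its Kupffer cell markers summed to 2350 CPM against 937 and 587, while its neutrophil markers were the lowest of the population at 175 CPM against 286 and 679. Il1rn did not share the pattern, at 47.4, 47.6 and 46.1 CPM, nor did Tnf, at 56.2, 45.5 and 61.8 CPM. The part of these differences in the cytokine levels was not tested. In CD11b+ cells the libraries were closer for Il10, at 11.7, 11.6 and 13.9 CPM, and Il6 held 25, 32 and 17 reads.

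Ranked by level per length of gene model (FPKM), the order of the genes changed between tissue and cells. In con, Il18 led at 10.1 FPKM, followed by Il1a at 1.42 and Il1b at 1.15, whose samples overlapped. In Ht, Il18 led at 4.13 FPKM, followed by Ptgs2 at 2.90, Nlrp3 at 2.08 and Il1rn at 0.858, with no overlap between these neighbours, and Il1a was next to last at 0.229. In CD11b+ cells, Il1b led at 341 FPKM and Osm followed at 76.2, without overlap, then Tnf at 45.3, Ptgs2 at 40.7 and Nlrp3 at 27.9, each overlapping the next. In F4/80+ cells, Il1b was also first at 138 FPKM and Osm second at 53.3, but the neighbours from Il1b down to Il1rn all overlapped. Il6 was last in every group, at 0.345 FPKM in F4/80+ cells and 0.484 in CD11b+ cells. Il18 had the highest mean in all tissue groups, though in Mt1 its samples (mean 5.83 FPKM) overlapped those of Il1b (5.58), and in Mt1 replicate 2 both Il1b (9.79) and Il1rn (5.17) exceeded it (4.66). It ranked 6 in both sorted populations, at 22.8 and 24.8 FPKM.

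For each gene the closest profiles over the 9 group means were sought among 14115 genes, by the root mean square difference of log2 (CPM + 1). This describes likeness across 9 points that share libraries. Osm lay closest to the chemokine genes Ccl3 (0.21) and Ccl4 (0.37), Nlrp3 to Nfkbiz (0.17) and Ier5 (0.18), and Tnf to Nfkbid (0.32) and the AP-1 gene Junb (0.35). Il1b lay closest to Ccrl2 (0.53) and Atf3 (0.59), the loosest match of the 9 genes compared, and Il1rn to Egr2 (0.35) and Grk3 (0.38). Ptgs2 lay closest to Coro1a (0.21) and Pstpip1 (0.29), Il10 to Tnfsf13b (0.11) and Rtl5 (0.13), Il18 to Ctsh (0.14) and Acox3 (0.15), and Il1a to Pparg (0.20) and Zfp182 (0.22). Il6 was below the minimum mean of 1 CPM.

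Receptors and partners of the interleukin 1 family changed in both directions in metastasis. Of 22 further interleukin 1 and inflammasome genes, 8 were called higher and 0 lower from con to Lt (12.4% and 0.256% of all genes), and 11 higher and 2 lower from con to Ht (25.8% and 24.1% of all genes), with a median of 1.26 against 0.09 for all genes. Il1rl1, the interleukin 33 receptor, held 0 to 1 reads in con and 45.8 to 48.4 CPM in Ht, and Il18rap, a chain of the interleukin 18 receptor, 1 to 2 reads and 13.3 to 13.4 CPM. The signalling receptor Il1r1 (-1.42, adjusted p = 0.00322) and its accessory chain Il1rap (-3.38, adjusted p = 0.000274) fell. Both also fell from Mt to Ht (-1.09, adjusted p = 0.0222, and -1.86, adjusted p = 0.0115). There 2 of 22 genes were called lower and 0 higher, with 13.4% and 1.5% of all genes. All 9 hepatocyte and 4 of 8 endothelial markers were called lower in both steps, and their part in these falls was not tested. Total-count scaling moved the median over all genes from 0.09 to 1.28 from con to Ht. Values of these 2 receptor genes under that scaling are not given. Il1r1 was 3.59 to 6.04 CPM in F4/80+ cells and 2.73 to 3.51 in CD11b+ cells, against 77.5 to 159 in Mt2 tissue. The decoy receptor Il1r2, which binds interleukin 1 without signalling, was higher in F4/80+ cells (2.83, adjusted p = 0.000102) and CD11b+ cells (5.34, adjusted p = 6.73e-07) than in Mt2 tissue, and was 1 of the 11 genes that differed between the populations (-2.56 from CD11b+ to F4/80+ cells, SE 0.24, adjusted p = 0.0284).

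Of 18 TNF and NF-κB genes, 4 were called higher from con to Lt (12.4% of all genes), 8 from con to Ht (25.8%) and 0 lower in either (0.256% and 24.1%), with a median of 0.47 in Ht against 0.09 for all genes. Nfkb2 rose by 3.13 (adjusted p = 0.000383) and Traf1 by 4.89 (adjusted p = 0.000836) on the log2 scale. In sorted cells 12 (F4/80+) and 11 (CD11b+) were higher than in Mt2 tissue and 0 lower, with 17.2% and 17.6% of all genes called higher. The feedback inhibitor Tnfaip3 (4.29 and 4.44) and Nfkbiz (4.26 and 4.24) differed most. Of 16 genes of the interleukin 6 family and interleukin 10 receptor, 6 rose and 4 fell from con to Ht (25.8% and 24.1% of all genes), with a median of 0.44 against 0.09. Lif held 0 reads in both con libraries and 8.53 to 8.84 CPM in Ht, and the inhibitor Socs1 rose by 4.08 (adjusted p = 0.000132). The receptors Lifr (-3.71, adjusted p = 0.000733) and Il6ra (-2.26, adjusted p = 0.000921) fell, and the share of the list called lower was near that of all genes. Summed hepatocyte markers lay at 168000 to 199000 CPM in con and 3260 to 4730 in Ht, and their part in these falls was not tested. Il10ra (3.61 and 3.34) and Socs3 (3.24 and 3.26) were higher in sorted cells than in Mt2 tissue, and the oncostatin M receptor Osmr was lower (-3.35 and -5.02), at 0.986 to 3.0 CPM in F4/80+ cells against 19.8 to 23.2 in Mt2 tissue. Osm, by contrast, was called higher in both populations.

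The prostaglandin genes moved on both sides of Ptgs2. Of 15 tested, 8 rose and 3 fell from con to Ht (25.8% and 24.1% of all genes), with a median of 1.88 against 0.09 for all genes. Ptges, which makes prostaglandin E2 from the product of cyclooxygenase-2, held 3 reads in each con library and reached 14.1 to 34.8 CPM in Lt and 74.0 to 74.3 in Ht. Hpgd (-3.77, adjusted p = 0.0011) and Slco2a1 (-3.28, adjusted p = 0.000838), the enzyme and the transporter that clear prostaglandins, fell. They also fell from Mt to Ht (-2.46, adjusted p = 0.0193, and -2.02, adjusted p = 0.0192). There 2 of 15 genes were called lower and 1, Hpgds, higher (1.17, adjusted p = 0.0282), with 13.4% and 1.5% of all genes. All 9 hepatocyte and 4 of 8 endothelial markers were called lower from con to Ht and from Mt to Ht. Fibroblast and stellate cell markers rose from con to Ht, with 4 of 6 called higher and 1 lower. The part of these cell types in the changes was not tested. Ptges was low in sorted cells, at 5.35 to 9.97 CPM in F4/80+ cells and 4.0 to 6.31 in CD11b+ cells against 29.0 to 63.5 in Mt2 tissue, while Ptgs2 was higher in the cells than in the tissue. The prostaglandin E2 receptor Ptger4 was higher in sorted cells, by 4.07 (adjusted p = 1.67e-07) and 4.0 (adjusted p = 1.3e-07).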

How the data were processed

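RNA was extracted with TRIzol from 14 liver tissue samples and 6 samples of sorted cells and sequenced after NEBNext Ultra library preparation, a kit that as named does not mark strand. Reads were processed, per the submitters' notes, with CASAVA, HISAT2 2.0.5 and featureCounts 1.5.0-p3 on GRCm38 (mm10). The authors deposited raw counts per gene in 2 tables, one of tissue and one of sorted cells, each with 54532 genes, gene lengths and coordinates. No further column was left unmapped. Neighbouring genes on opposite strands can share reads in such counts.

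Counts were tested with edgeR 4.0.16 in R 4.3.3 (TMM scaling, filterByExpr, glmQLFit and glmQLFTest), in 1 fit of the 7 tissue groups (17187 genes), 1 of the sorted populations (14263 genes) and 1 of all 9 groups for cells against tissue (18407 genes). P-values were adjusted by Benjamini-Hochberg over all genes tested, and genes were called where the adjusted p did not exceed 0.05 and the log2 fold change reached 1 in either direction. Fold changes are the second group minus the first, and SE is the fold change over the root of the F statistic. L-con, as 1 library, was in the fits and was compared with con by counting intervals only. CPM values are TMM-scaled over all samples, and FPKM is that value per kilobase of the deposited gene length. Exact 95% intervals of count ratios cover counting error only. Alternatives were DESeq2 1.42.0, total-count scaling, a minimum of 10 counts in every library, no filter, no fold threshold, fits of the compared groups alone, 2 other treatments of Ht, a replicate block and each library left out. The fits were tested on simulated data.

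The 10 genes and the lists of pathway genes and markers were chosen with earlier results of these data known. After the values were seen, 1 macrophage marker was taken out of its list and is not reported here, which leaves 9 and makes that list a description only. Named beside the 10 genes were, per list and comparison, up to 2 called genes with the largest change in each direction (Ptges and Osmr also with their levels), and the 2 closest profiles per gene. The genes of the sorting antigens and the Il1rn to Il1b ratio were chosen after values were seen. The sorted-cell table was matched to gene names by Ensembl identifier.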

Additional observations from a re-analysis of the deposited data

Results flagged for a closer look

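Mt1 replicate 2 stood apart from the other medium-content tumors for 2 of the interleukin 1 genes. Il1b was at 18.7 CPM there, which was 0.66 of the whole range away from the next of the 6 Mt samples and 0.593 away from the next of the 10 metastasis samples. Il1rn was at 28.6 CPM, 0.752 and 0.658 of the range away. These gaps exceed Dixon's 95% critical values for 6 and 10 samples, in 4 of 20 sets of values examined. The 6 Mt samples lie within the 10 metastasis samples, so the 4 flags are 2 genes in 1 sample, each counted at both set sizes. The sets are not independent, and 4 of 20 cannot be set against a rate by chance. The 2 genes were highest in the same sample. Its neutrophil markers summed to 290 CPM, the highest of the Mt samples (79.8 to 163 in the other 5), its macrophage markers to 1700 CPM, within their range, and its fibroblast and stellate cell markers to 6870 CPM, the highest of the Mt samples (2260 to 5370 in the others). Its hepatocyte markers summed to 23900 CPM, the lowest of the Mt samples. Their part in the levels of Il1b and Il1rn was not tested.

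The single L-con library entered no comparison of the fits. By counting intervals it held 4 of the 10 genes above the level of con. The same rule was met by 18.1% of the 21993 genes with a read in these libraries. Ptgs2 had 14 reads (27.2 times con, 95% exact interval from 4.14 to 1150), Tnf 9 reads (8.75 times, 1.81 to 83.3), Il1b 44 reads (1.75 times, 1.14 to 2.68) and Nlrp3 40 reads (1.59 times, 1.02 to 2.46). Summed macrophage, Kupffer cell and neutrophil markers were also above con in this library (1000, 953 and 15.4 CPM), and their part was not tested. The intervals cover counting error only, and the spread between animals in this group is not known.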

How the results depend on the processing

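No fold change of a called gene changed sign under any alternative run. The count of the 10 genes called from con to Lt was 2, and became 1 under total-count scaling, 0 with at least 10 counts in every library (5 genes tested), 4 without a filter and 1 with any of the 4 libraries left out. From Mt to Ht it was 3, and became 1 in a fit of the groups compared only, with a range of 0 (without Ht replicate 2) to 3 over libraries left out. From con to Ht it was 7, 3 with at least 10 counts in every library, and 5 to 7 with a library left out. From con to metastases it was 6, 2 with at least 10 counts, and 1 (without con replicate 2, Ptgs2 alone) to 7 with a library left out. DESeq2 called 1 gene between the sorted populations where edgeR called 0. With at least 10 counts in every library, which tested 5 genes, 5 were called in F4/80+ cells and 4 in CD11b+ cells against Mt2 tissue, in place of 9 and 8. That minimum removes genes near 0 in control liver by construction.

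Under total-count scaling the median over all genes went from 0.10 to 0.40 (con to Lt), -0.02 to 0.33 (Lt to Mt), 0 to 0.55 (Mt to Ht), 0.07 to 0.75 (con to metastases) and 0.01 to 0.49 (day 9 to day 11). It ended 3 calls of single genes: Il18 from con to Ht, Il1rn from Mt to Ht and Tnf from con to Lt. It added 2: Il1rn from con to Ht (1.73, adjusted p = 0.0398) and Il1b from con to metastases (1.87, adjusted p = 0.0499).

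No label says what a replicate number shares, and the samples were not taken as paired. Deviations of same-numbered samples correlated between 0.155 and 0.565 over the 6 pairs among Lt, Mt3, Mt2 and Mt1, between -0.273 and -0.052 over the 9 pairs with con or Ht, and between -0.123 and 0.012 over the numbers of the sorted populations. With a replicate block, the counts of the 10 genes were 2, 0, 3, 7, 6, 0, 0, 9 and 8 in the 9 comparisons, equal to those without it, while genes called between the sorted populations rose from 11 to 78 over all genes. Depth limits Il6, Il10, Osm, Ptgs2 and Tnf in control liver, where 0 to 2 reads per library carry each value.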
